A study of Rattus norvegicus with 50 samples.

Results

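The neutrophil granule and alarmin genes were followed in the blood of rats with a knee joint damaged by monosodium iodoacetate (MIA), a compound that blocks glycolysis in cartilage cells and produces osteoarthritis-like lesions. The list held 9 genes, S100a8, S100a9, Retnlg, Lcn2, Mpo, Elane, Ltf, Camp and Ngp, and a gene was measured where a probe set carried it as its single symbol in the platform's table of probes and genes. Such a probe set was found for 8 of the 9 genes, 1 for each, among 36685 probe sets in all, which named 14557 genes in this way, and none was used for Mpo. MIA rats were male Wistar rats that received MIA into the right knee joint after the blood sample of day 0, and naive rats were male Wistar rats that were left intact, without an injection of the vehicle. Tail vein blood of 6 MIA and 4 naive rats, according to the labels, was taken from the same animals at days 0, 2, 14, 21 and 28, whereas the methods state equal groups of 6. Age was not given, and the whole blood RNA of each sample was measured on 1 Affymetrix Rat Gene 2.0 ST array.

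Neutrophils build their granules in sequence while they mature in the bone marrow. Primary granules come first and hold myeloperoxidase (Mpo) and neutrophil elastase (Elane), secondary granules follow with lactoferrin (Ltf), lipocalin 2 (Lcn2), cathelicidin (Camp) and neutrophilic granule protein (Ngp), and the transcripts of these proteins are mostly lost before the cell leaves for the blood. The alarmins S100a8 and S100a9 form the calprotectin complex in the cytosol of mature neutrophils and monocytes, are released from stressed cells and are known as ligands of Tlr4, while Retnlg, resistin-like gamma, is a secreted protein that marks mature neutrophils in rodents.

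One array, MIA day 21 replicate 4, was left out. Its values had an SD of 1.00 over the probe sets and a mean correlation of 0.243 with the other arrays, against SDs of 1.80 to 1.99 and mean correlations of 0.920 to 0.954 for the other 49 arrays, and it held Retnlg at a log2 signal of 1.61. With this array kept in, Retnlg at day 28 of MIA rats, where its own value does not enter the mean, had an adjusted p of 0.317 from the same limma model. The defining markers of neutrophils were present in the blood: the mean log2 signal over 7 of 8 listed markers was 6.16 to 6.96 in the MIA day 28 arrays and 5.66 to 6.47 in the MIA day 0 arrays, and 6.41 to 7.08 and 5.39 to 6.33 in the naive arrays of these days. In whole blood, fewer cells of a type and less RNA per cell cannot be told apart. All values below are log2 signals per probe set, in which 1 unit is a doubling, and since a probe set's signal also depends on its probes, levels are not set against each other between genes.

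The genes differed in how far they could be followed. The means of S100a8, S100a9, Retnlg and Ngp over the 49 arrays lay at or above the 91.5th percentile of the means of all probe sets, with Lcn2 at the 84.9th and Camp at the 72.4th percentile. Elane and Ltf averaged 1.84 and 1.52, below the median of 2.26 over all probe sets, and their values were dim in every group.

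S100a8 and S100a9 are neighbours on chromosome 2 with no other gene between them in the RefSeq annotation, and Camp, Ngp and Ltf lie on chromosome 8. The upstream sequences of 4 genes are shown because their courses below go apart: S100a9 and Retnlg were highest at the late days, while Lcn2 and Ngp were not. Each is 300 bases from RefSeq (GRCr8), 250 before and 50 after the annotated start, printed 5′ to 3′ on the strand of the gene, with capitals for bases that match TTGCNNAA (the core of a C/EBP site), AGGAAGT (a PU.1 site) or TATAAA (the TATA box) on either strand. The positions are chr2:178490573-178490872 for S100a9, chr11:65395590-65395889 for Retnlg and chr3:36081731-36082030 for Lcn2, all on the minus strand, and chr8:119272355-119272654 for Ngp, on the plus strand.
S100a9: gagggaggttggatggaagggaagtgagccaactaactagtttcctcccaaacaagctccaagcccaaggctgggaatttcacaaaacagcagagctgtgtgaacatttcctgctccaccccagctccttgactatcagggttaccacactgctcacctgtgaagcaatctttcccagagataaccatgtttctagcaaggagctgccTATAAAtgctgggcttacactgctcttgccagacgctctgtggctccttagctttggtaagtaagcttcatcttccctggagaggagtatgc
Retnlg: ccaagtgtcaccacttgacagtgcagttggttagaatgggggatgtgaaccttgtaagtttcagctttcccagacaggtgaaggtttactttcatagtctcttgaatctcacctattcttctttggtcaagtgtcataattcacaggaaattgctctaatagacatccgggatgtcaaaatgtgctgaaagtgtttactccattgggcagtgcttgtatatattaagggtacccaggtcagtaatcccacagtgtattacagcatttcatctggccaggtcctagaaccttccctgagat
Lcn2: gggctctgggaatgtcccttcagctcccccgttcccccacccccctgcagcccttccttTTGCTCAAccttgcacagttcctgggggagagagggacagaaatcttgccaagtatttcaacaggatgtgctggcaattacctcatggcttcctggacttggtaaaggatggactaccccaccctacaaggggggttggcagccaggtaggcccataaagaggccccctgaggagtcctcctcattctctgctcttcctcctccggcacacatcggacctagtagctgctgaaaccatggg
Ngp: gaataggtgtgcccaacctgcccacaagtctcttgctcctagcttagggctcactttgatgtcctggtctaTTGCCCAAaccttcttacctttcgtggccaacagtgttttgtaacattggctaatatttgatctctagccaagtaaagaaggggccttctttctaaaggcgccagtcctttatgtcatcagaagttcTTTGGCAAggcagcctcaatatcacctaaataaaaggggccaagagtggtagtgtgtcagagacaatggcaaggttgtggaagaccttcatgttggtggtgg
The S100a9 window held TATAAA, which starts 42 bases before the annotated start and is present in 14.2% of the 33469 promoters of this length. Lcn2 held 1 match of TTGCNNAA and Ngp held 2, a motif found in 10.6% of all promoters, and the Retnlg window held none of the 3 motifs. No window among these held AGGAAGT, which 8.41% of all promoters carry, and no 2 motifs overlapped. RefSeq windows were at hand for 7 of the 9 genes, and those of Camp and Ltf held none of the motifs, while that of Mpo held AGGAAGT on the opposite strand.

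At single days, Retnlg was the only measured member that rose in MIA rats by the limma test without the rat as a block. With the rat as a random block, the only member that rose at single days in MIA rats was again Retnlg. In MIA rats, its log2 signal had a lowest, median and highest value of 5.91, 6.83 and 7.28 at day 0, of 6.05, 6.61 and 7.03 at day 2 and of 6.55, 7.14 and 7.40 at day 14. At day 21 the 5 remaining MIA arrays had 8.63, 8.17, 7.81, 7.34 and 7.35, and at day 28 the lowest, median and highest were 7.59, 7.93 and 8.85. Thus every MIA rat lay above all 6 day 0 values at both late days, without overlap of the groups. By limma with Benjamini-Hochberg adjustment over all probe sets, the change from day 0 was 1.17 ± 0.23 (SE) at day 21, with an adjusted p of 0.00969, and 1.36 ± 0.22 at day 28, with an adjusted p of 0.000288, a 2.56-fold higher signal. Retnlg was higher at day 28 than at day 0 in 6 of 6 MIA rats, by 0.51 to 2.52, and the F test over the 4 later days gave an adjusted p of 1.99e-05, with 3.43% of all probe sets called.

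The call at day 21 was lost when MIA replicate 1 or MIA replicate 2 was left out. Without MIA replicate 1, which had the highest Retnlg at day 21, the change was 0.90 with an adjusted p of 0.0609, and without MIA replicate 2 it was 1.15 with an adjusted p of 0.0527. At day 28 the adjusted p stayed between 0.000328 and 0.00359 when each rat was left out in turn.

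Retnlg was also high at the late days in naive rats. The 4 naive rats had 6.74, 7.36, 7.00 and 6.98 at day 0, 6.97, 7.00, 7.18 and 6.64 at day 2, and 7.61, 7.55, 7.65 and 7.24 at day 14. They had 8.49, 8.03, 7.80 and 7.35 at day 21 and 8.13, 8.02, 7.44 and 7.69 at day 28. All 4 lay above every naive day 0 value at day 28, and each rat was above its own day 0 value from day 14 on. The changes of 0.90 ± 0.27 at day 21 and 0.80 ± 0.27 at day 28 did not pass, with adjusted p-values of 0.132 and 0.119, and the F test over 4 days, with an adjusted p of 0.0762 and 1.11% of all probe sets called, passed with the rat as a fixed block, with an adjusted p of 0.035 and 3.45% called, but not as a random block (adjusted p = 0.0581). The MIA change exceeded the naive change at day 28 by 0.56 ± 0.35 (95% interval −0.15 to 1.27, adjusted p = 1), so that the difference between treatments was not shown. Over all rats, with both treatments weighted equally, Retnlg rose by 1.03 ± 0.18 at day 21 and by 1.08 ± 0.18 at day 28, with adjusted p-values of 0.000357 and 5.34e-05, among 5.03% and 12.0% of all probe sets called.

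Retnlg was thus 1 of 8 measured members called at MIA day 28 and at MIA day 21, and no member and 0.00% of all probe sets were called at MIA days 2 and 14. Of all probe sets, 4.26% were called at MIA day 28 and 0.665% at MIA day 21, with 2.39% and 0.128% called higher. In naive rats no member was called at any day. There, 2.04% of all probe sets passed at day 28 and 0.333% at day 21, and 0.00273% passed at day 14, with 0.00% for day 2. Probe sets whose values lay wholly above those of day 0 made up 2.07% of all at MIA day 28, 0.714% at MIA day 21 and 4.64% at naive day 28. The median change over the 8 members at MIA day 28 was 0.03, next to −0.02 over all probe sets, since the members moved apart.

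**Figure D1:**
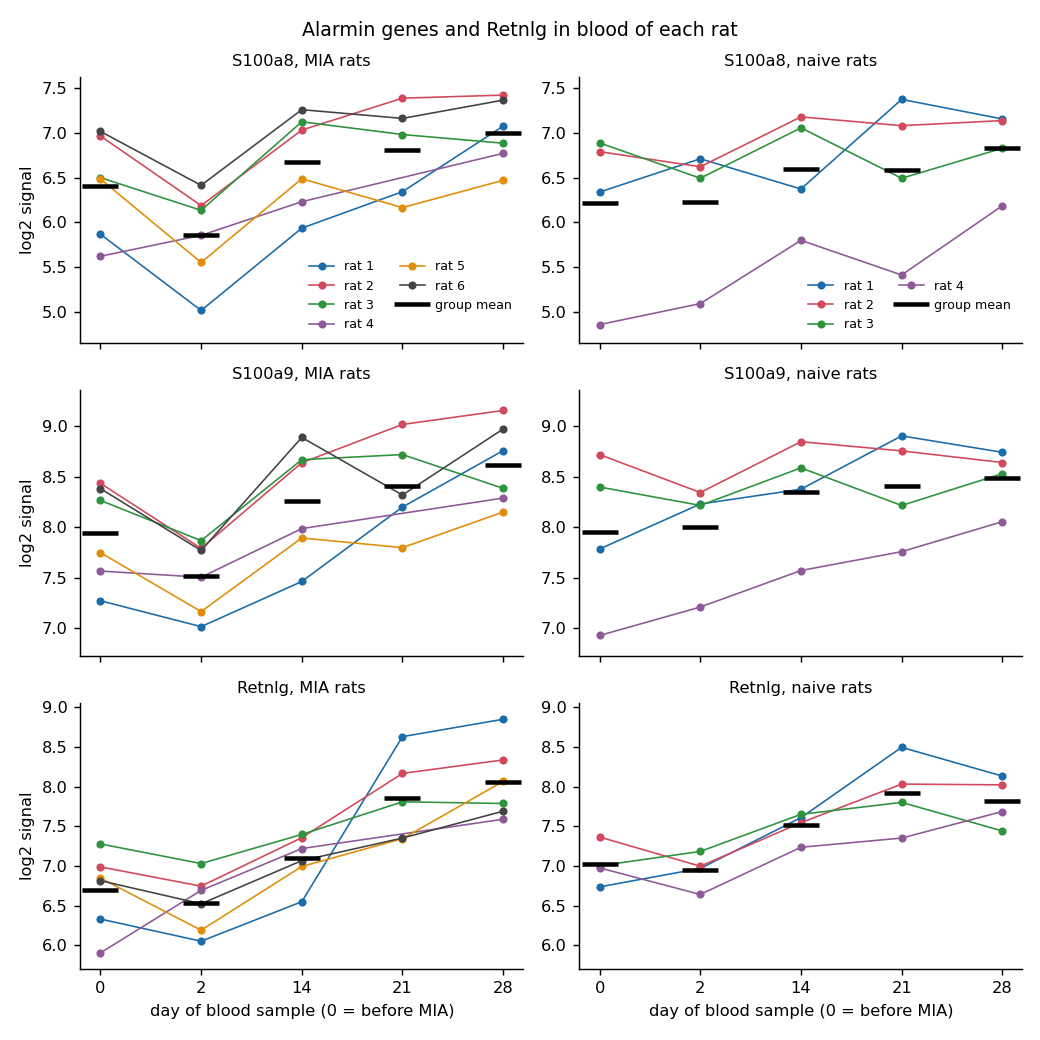
Log2 signal (vertical axis) of S100a8, S100a9 and Retnlg at each day of blood sampling (horizontal axis, days equally spaced) in each MIA rat (left) and each naive rat (right), with 1 line per rat and black bars for group means. Retnlg at day 28 lies between 7.59 and 8.85 in MIA rats, above all their day 0 values, and MIA rat 4 has no point at day 21 because that array was left out.

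The alarmin genes S100a8 and S100a9 had lower means at day 2 than at day 0 in MIA rats and higher means at day 28, and the day 28 change passed the test with the rat as a fixed block but neither without a block nor with the rat as a random block. S100a9 in MIA rats had a lowest, median and highest value of 7.27, 8.01 and 8.44 at day 0, of 7.02, 7.64 and 7.87 at day 2, of 7.47, 8.32 and 8.89 at day 14 and of 8.15, 8.57 and 9.16 at day 28, and its 5 values at day 21 were 8.20, 9.02, 8.72, 7.80 and 8.32. These groups overlapped at every day. S100a9 was lower at day 2 than at day 0 in 6 of 6 MIA rats, by 0.06 to 0.64, and higher at day 28 in 6 of 6, by 0.12 to 1.49. Probe sets lower in every MIA rat at day 2 were 1.76% of all, and those higher in every MIA rat at day 28 were 8.52%. The limma change at day 28 was 0.67 ± 0.28 (adjusted p = 0.148). With the rat as a fixed block, which compares each animal with itself, its SE was 0.15 and the adjusted p was 0.00526, with 7.58% of all probe sets called. As a random block, for which limma estimates 1 correlation between arrays of a rat over all probe sets, 0.032 here, it gave an adjusted p of 0.117. With a shared correlation this small, the random block was close to the fit without a block. Yet 77.0% of the spread of S100a9 within groups lay between rats, and 80.6% for S100a8, against a median of 22.2% over all probe sets. For these 2 genes the random block and the fit without a block are therefore not separate checks.

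S100a8, the partner of S100a9 in calprotectin, had nearly the same course. Its lowest, median and highest values in MIA rats were 5.62, 6.49 and 7.01 at day 0, 5.02, 6.00 and 6.41 at day 2, 5.94, 6.76 and 7.26 at day 14 and 6.47, 6.98 and 7.42 at day 28, with 6.34, 7.38, 6.98, 6.17 and 7.16 at day 21. It was lower than at day 0 in 5 of 6 MIA rats at day 2 and higher in 5 of 6 at day 28. The change of 0.59 ± 0.34 at day 28 had an adjusted p of 0.318, and the adjusted p was 0.0297 with the rat as a fixed block and 0.276 as a random block. The F test over the 4 later days in MIA rats gave adjusted p-values of 0.173 for S100a8 and 0.0711 for S100a9, and of 0.000179 and 4.61e-05 with the rat as a fixed block, where 6.50% of all probe sets passed. As a random block they were 0.12 for S100a8 and 0.044 for S100a9. All 6 MIA rats and all 4 naive rats were above their own day 0 values of S100a8, S100a9 and Retnlg at day 14, as were 1.37% of all probe sets in MIA rats and 8.47% in naive rats, although no member passed at that day.

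The naive rats showed the late values of the alarmins as well. Naive S100a9 was 7.79, 8.72, 8.40 and 6.93 at day 0, 8.23, 8.35, 8.22 and 7.21 at day 2, 8.38, 8.85, 8.59 and 7.57 at day 14, 8.91, 8.76, 8.22 and 7.76 at day 21 and 8.74, 8.64, 8.53 and 8.06 at day 28. Naive S100a8 was 6.34, 6.79, 6.89 and 4.86 at day 0, 6.71, 6.62, 6.49 and 5.10 at day 2, 6.37, 7.17, 7.05 and 5.80 at day 14, 7.37, 7.08, 6.49 and 5.42 at day 21 and 7.15, 7.13, 6.83 and 6.19 at day 28. Naive replicate 4 was the lowest rat at every day for both genes. At day 28, 3 of 4 naive rats were above their own day 0 value for each gene, with changes of 0.61 ± 0.42 for S100a8 and 0.53 ± 0.34 for S100a9 (adjusted p = 0.547 and 0.505, limma).

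Whether the alarmins differed between treatments could not be resolved. At day 2, the change of S100a8 was −0.55 ± 0.34 in MIA rats and 0.01 ± 0.42 in naive rats, a difference of −0.56 (95% interval −1.64 to 0.52), and that of S100a9 was −0.43 ± 0.28 in MIA rats and 0.04 ± 0.34 in naive rats, a difference of −0.47 (95% interval −1.36 to 0.42). Both differences had an adjusted p over the threshold, 0.987 for S100a8 and 0.985 for S100a9 by limma, and no probe set at all was called for this difference, while 5.61% had an unadjusted p under 0.05. These intervals come from the fit without a block. With the rat as a fixed block the day 2 differences were −0.56 ± 0.27 for S100a8 and −0.47 ± 0.24 for S100a9. Their unadjusted p-values were 0.0461 and 0.0634 and their adjusted p-values 0.811 and 0.835 by limma, and again no probe set was called. At day 28 the differences were −0.02 for S100a8 (95% interval −1.10 to 1.06) and 0.14 for S100a9 (95% interval −0.75 to 1.03). Over all rats at day 28, S100a9 was 0.60 ± 0.22 above day 0 with an adjusted p of 0.0654 and S100a8 was 0.60 ± 0.27 above it with an adjusted p of 0.141. With the rat as a fixed block both rose, with adjusted p-values of 0.00061 and 0.00206, among 14.3% of all probe sets called. As a random block, the rat left S100a9 called with an adjusted p of 0.0474 and S100a8 not, with 0.112. The F test of S100a9 over the 4 later days in all rats passed with an adjusted p of 0.0454 (10.2% of all probe sets called) but failed when any 1 of the 10 rats was left out.

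The secondary granule genes Ngp, Lcn2 and Camp had mean changes below 0 at day 28 in both treatments, and none passed the test there. Ngp, a cathelicidin-related protein of these granules, had a lowest, median and highest value in MIA rats of 5.54, 6.09 and 7.10 at day 0, of 4.53, 5.86 and 6.12 at day 2, of 5.23, 6.24 and 6.62 at day 14 and of 5.64, 5.92 and 6.38 at day 28, with 4.67, 6.33, 6.16, 4.88 and 6.58 at day 21. The groups overlapped throughout. Its change in MIA rats was −0.63 ± 0.45 at day 2, when it was lower in 5 of 6 rats, and −0.31 ± 0.45 at day 28, with adjusted p-values of 0.925 and 0.733 by limma.

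Ngp in the naive rats was 6.01, 6.18, 6.63 and 4.76 at day 0, 6.41, 5.56, 6.30 and 4.53 at day 2, 6.42, 6.14, 6.36 and 4.36 at day 14, 6.49, 5.53, 5.38 and 3.33 at day 21 and 6.68, 6.27, 5.23 and 3.75 at day 28. Naive replicate 1 was at its highest at day 28, while replicates 3 and 4 were more than 1 unit below their day 0 values at day 21. Over all rats, Ngp stood 0.63 ± 0.36 below day 0 at day 21 with an adjusted p of 0.315. With the rat as a fixed block it fell by 0.62 ± 0.20 (adjusted p = 0.0462), beside 7.37% of all probe sets called in either direction, and with the rat as a random block the adjusted p was 0.276.

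Lcn2, lipocalin 2, binds bacterial siderophores. In MIA rats it had 4.57, 5.19 and 5.67 as lowest, median and highest at day 0, 4.34, 4.84 and 5.19 at day 2, 4.68, 5.14 and 5.90 at day 14 and 4.66, 4.81 and 5.21 at day 28, and 4.30, 5.36, 5.23, 4.06 and 5.12 at day 21. Naive rats had 5.14, 4.96, 5.30 and 4.19 at day 0, 5.07, 4.88, 5.16 and 3.74 at day 2, 5.32, 4.83, 5.58 and 3.55 at day 14, 5.41, 4.96, 4.69 and 3.28 at day 21 and 5.55, 5.03, 4.33 and 3.62 at day 28. At day 2 every rat was below its own day 0 value, by 0.02 to 0.88 in the 6 MIA rats and by 0.07 to 0.45 in the 4 naive rats, where 1.76% and 6.57% of all probe sets were lower in every rat. The changes of −0.33 ± 0.32 in MIA rats and −0.18 ± 0.39 in naive rats did not pass (adjusted p = 0.946 and 1). At day 28 Lcn2 was below day 0 in 5 of 6 MIA rats and 2 of 4 naive rats, with changes of −0.31 ± 0.32 and −0.26 ± 0.39.

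Camp, the precursor of the cathelicidin antimicrobial peptide, was split at day 2 among MIA rats. It was 2.49 to 4.12 in MIA rats at that day and 3.47 to 4.15 at day 0, and replicates 1 and 5 had 2.51 and 2.49 at day 2 and 3.70 and 3.42 at day 14, while replicates 3 and 4 were above their day 0 values at day 2. The change at day 2 was −0.43 ± 0.29 (adjusted p = 0.923) with 4 of 6 rats lower, and it was −0.02 ± 0.29 at day 28. In naive rats, Camp was 3.74, 4.10, 3.76 and 2.81 at day 28 and 3.96, 4.33, 3.59 and 2.94 at day 0, a change of −0.10 ± 0.36.

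**Figure D2:**
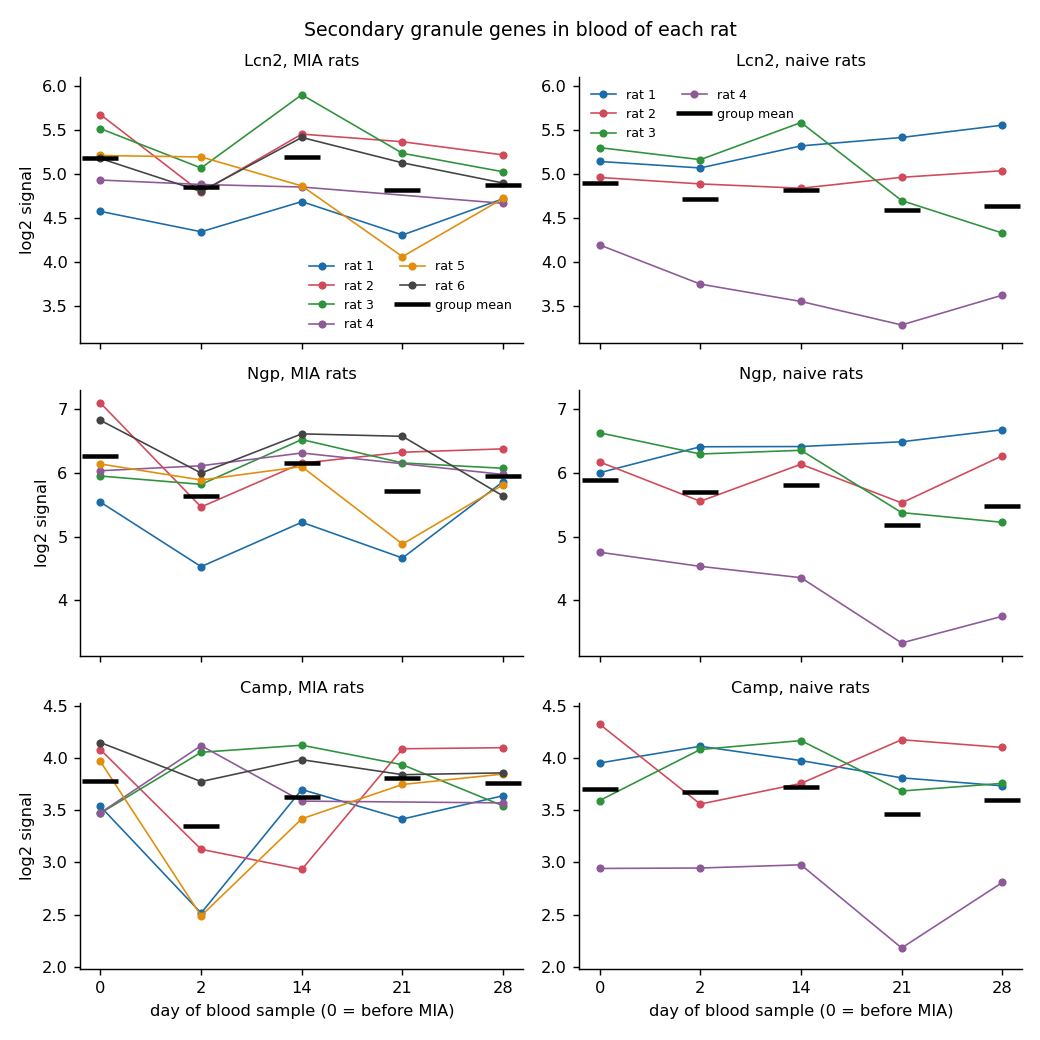
Log2 signal (vertical axis) of Lcn2, Ngp and Camp at each day of blood sampling (horizontal axis, days equally spaced) in each MIA rat (left) and each naive rat (right), with 1 line per rat and black bars for group means. Naive rat 4 lies below the other naive rats at every day in all 3 genes, with Ngp at 3.33 at day 21 and 4.76 at day 0.

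Elane and Ltf stayed dim. Group means were 1.77 to 1.95 in MIA rats and 1.59 to 2.09 in naive rats for Elane, the elastase of primary granules. Elane was lower at day 2 than at day 0 in 4 of 4 naive rats, with 1.40, 1.85, 1.63 and 1.47 at day 2 and 1.81, 1.88, 2.27 and 2.39 at day 0, but the change of −0.50 ± 0.17 had an adjusted p of 0.741. The MIA change at day 2 was 0.02 ± 0.13, and the difference between the treatments of 0.52 ± 0.21 had an adjusted p of 0.812. For Ltf, the iron-binding lactoferrin, group means were 1.46 to 1.67 in MIA rats and 1.34 to 1.60 in naive rats. The naive groups of Ltf did not overlap between day 21, at 1.43, 1.28, 1.38 and 1.40, and day 0, at 1.68, 1.51, 1.56 and 1.63, as was so for 4.42% of all probe sets in this direction, and the change of −0.22 ± 0.17 had an adjusted p of 0.617.

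**Figure D3:**
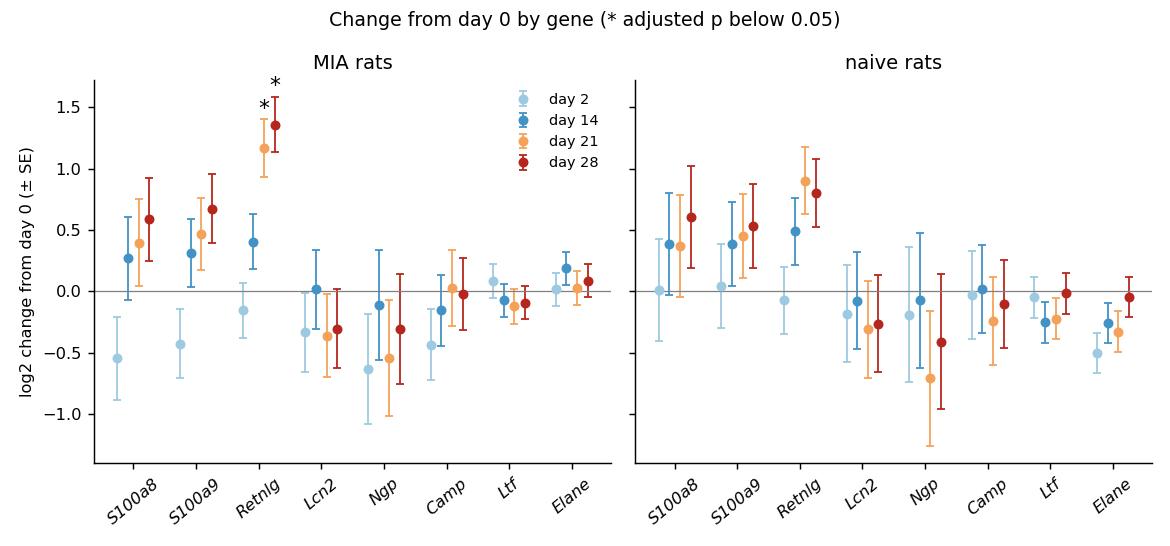
Log2 change from day 0 (vertical axis, points with bars of 1 SE from limma) of the 8 measured genes (horizontal axis) at days 2, 14, 21 and 28 in MIA rats (left) and naive rats (right). Retnlg in MIA rats, at 1.17 on day 21 and 1.36 on day 28, carries the only asterisks, which mark an adjusted p below 0.05.

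Changes of 2 members can be set against each other within an animal. In each rat, the change of Retnlg from day 0 was larger than that of Ngp at day 28, by 1.67 ± 0.67 (SD) over the 6 MIA rats and by 1.21 ± 0.66 over the 4 naive rats. It was larger than that of Lcn2 in all 10 rats as well, by 1.66 ± 0.51 in MIA rats and 1.06 ± 0.37 in naive rats. The change of S100a8 exceeded that of Lcn2 at day 28 in 6 of 6 MIA rats, by 0.89 ± 0.33, and in 4 of 4 naive rats, by 0.87 ± 0.74, and it exceeded that of Ngp in all 10 as well. For S100a9 the order was less uniform, as its change exceeded that of Ngp in 5 of 6 MIA and 3 of 4 naive rats and that of Lcn2 in 6 of 6 MIA and 3 of 4 naive rats. These pairs were chosen with the courses known, and no test was made of them.

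A second pattern was the difference between animals, which lasted over the 5 days. Of the spread of S100a8 within groups of treatment and day, 80.6% lay between rats, as did 79.0% for Lcn2, 77.3% for Ngp, 77.0% for S100a9 and 56.9% for Camp, where the median over all probe sets was 22.2%. The share was 27.0% for Retnlg, 22.3% for Elane and 11.6% for Ltf. Naive replicate 4 averaged 5.47 over the days for S100a8, 3.68 for Lcn2, 4.15 for Ngp and 2.77 for Camp, below each of the other 9 rats, whereas its mean of 7.18 for Retnlg was within their range of 6.85 to 7.59. Without this rat the shares were 67.0% for S100a8, 66.2% for S100a9, 54.7% for Lcn2, 50.5% for Ngp and 20.7% for Camp, with a median of 22.3% over all probe sets. MIA replicate 1 had the lowest mean of Ngp among MIA rats, 5.17, and the lowest of Lcn2, 4.52.

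The same arrays were high or low in several members. After the mean of each group was removed, S100a8 and S100a9 correlated over the 49 arrays with a Pearson r of 0.94, and with an r of 0.91 over the 44 arrays without naive replicate 4. Lcn2 and Ngp had an r of 0.91, or 0.80 without that rat, and S100a8 and Ngp had 0.82, or 0.70 without it. S100a8 and Camp had 0.71 over all arrays and 0.47 without it. Retnlg had an r of 0.40 to 0.60 to the other 5 brighter members, or 0.28 to 0.60 without that rat. Elane and Ltf had an r between −0.18 and 0.19 to all others, and between −0.33, for Ltf and Camp, and 0.16 without it. These values describe arrays that share rats, so they carry no test.

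**Figure D4:**
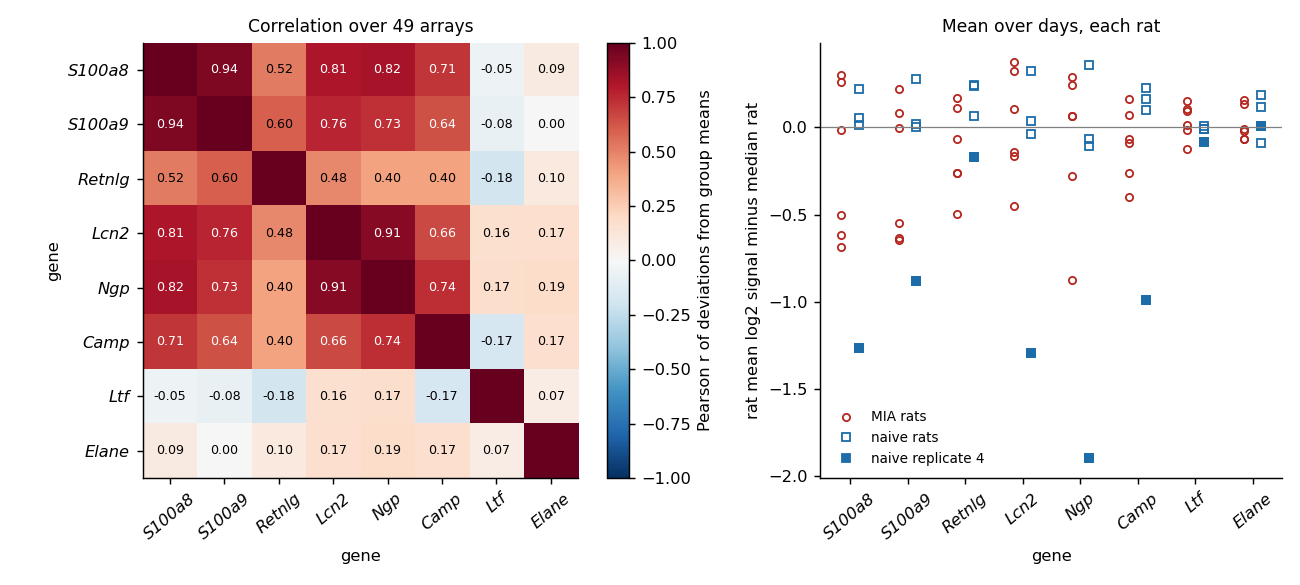
Left, Pearson r between pairs of genes (both axes) over 49 arrays after the group means were removed, with colour from −1 to 1. Right, mean log2 signal of each rat over its days minus the median rat (vertical axis) for each gene (horizontal axis), where naive replicate 4 (filled squares) has the lowest mean of S100a8, S100a9, Lcn2, Ngp and Camp.

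The genes outside the list with the most similar deviations differed between members. For S100a8 they were Mmp8, the neutrophil collagenase (r = 0.90), Tf, transferrin (0.88), Il1b, the inflammatory cytokine (0.87), Pglyrp1, a granule protein that binds bacterial cell walls (0.86), and Nlrp12 (0.83). The same 5 genes, in another order, were those most like S100a9, led by Il1b with an r of 0.89. For Ngp they were Mmp9, the gelatinase of tertiary granules (0.80), Pglyrp1 (0.77), Dgat2 (0.77), Prok2 (0.76) and Tf (0.76), and Mmp9 (0.82) and Pglyrp1 (0.82) were also among the 5 of Lcn2, which Urah (0.85) led. Camp was most like Dgat2 (0.74). Retnlg was most like Polr2e, a subunit of the RNA polymerases (0.70), Plekhj1 (0.68), Eif2ak1 (0.67), Cd300lb (0.64) and Urod (0.63), and none of these 5 genes was among those of the other members.

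Other genes of the neutrophil were described from lists chosen with earlier results of these data known. At day 28, 2.39% of all probe sets were called higher in MIA rats and 1.16% in naive rats, without a block. Of the surface receptors, 3 of 11 measured genes rose at MIA day 28 and none fell: Cxcr2, the receptor of neutrophil chemokines (1.10 ± 0.26, adjusted p = 0.0107), Csf3r, the receptor of granulocyte colony-stimulating factor (0.98 ± 0.22, adjusted p = 0.00969), and Mcemp1 (0.82 ± 0.24, adjusted p = 0.0397), with a median change of 0.42 next to −0.02 over all probe sets. In naive rats at day 28, Cxcr2 rose by 1.38 ± 0.31 and Csf3r by 1.08 ± 0.27, with adjusted p-values of 0.0115 and 0.0253, and Mcemp1 had 0.87 ± 0.29 (adjusted p = 0.112). All 3 measured subunits of the NADPH oxidase, which makes the oxidative burst, rose at MIA day 28, namely Rac2 (0.49 ± 0.09), Cyba (0.47 ± 0.13) and Ncf1 (0.55 ± 0.16), with adjusted p-values of 0.0021, 0.0381 and 0.0383, and 1 of 3, Rac2, rose in naive rats.

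Granule genes outside the members were described in the same way. Of 11 further secondary and tertiary granule genes, Slpi, a protease inhibitor, rose by 1.01 ± 0.27 (adjusted p = 0.0274) and Lyz2, lysozyme, by 0.67 ± 0.13 (adjusted p = 0.00185) at MIA day 28, and 10 of 11 had a change above 0, with a median of 0.56. Of the 11, 7 rose with the rat as a fixed block and 3 as a random block. The fixed block called 7.58% of all probe sets at MIA day 28 in either direction, and the share for the random block is not given here. In naive rats Lyz2 rose by 0.67 ± 0.16 (adjusted p = 0.0158), and Slpi had 0.92 ± 0.33 (adjusted p = 0.146). Of 9 further primary granule genes, Srgn, the proteoglycan that packs granules (0.42 ± 0.08, adjusted p = 0.00179), and Cst7, a cysteine protease inhibitor that cytotoxic cells express too (0.48 ± 0.14, adjusted p = 0.0447), rose at MIA day 28, while Prtn3, proteinase 3, had −0.46 ± 0.18 (adjusted p = 0.124), and the list's median was −0.05. At naive day 28, Srgn rose by 0.59 ± 0.10 (adjusted p = 0.00153), and Cst7 had 0.42 ± 0.17 (adjusted p = 0.232).

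Of the receptors of alarmins and other alarmins, Myd88, the adaptor of toll-like receptors, rose at MIA day 28 by 0.66 ± 0.14 (adjusted p = 0.0048) and in naive rats by 0.68 ± 0.17 (adjusted p = 0.0243). Without a block, Myd88 was the only 1 of 10 measured genes called in MIA rats, beside 4.26% of all probe sets, and 2.04% were called in naive rats. In naive rats 2 of 10 were called, the other being Tlr4, a receptor of S100a8 and S100a9, at 0.71 ± 0.18 (adjusted p = 0.0247), where MIA rats had 0.29 with an adjusted p of 0.232, and no probe set was called for the difference between the treatments. With the rat as a fixed block, 3 of the 10 rose and Cd36 fell at MIA day 28, beside 7.58% of all probe sets called. As a random block 2 rose and 1 fell. Over all rats without a block 3 rose, and Cd36 fell, at −0.61 ± 0.20 (limma adjusted p = 0.0341). None of 4 granulocyte transcription factors passed at day 28 in either treatment, with Spi1, which encodes PU.1, at 0.41 ± 0.18 in MIA rats (adjusted p = 0.172). Over all rats at day 28, Spi1 alone of the 4 rose, by 0.43 ± 0.14 (adjusted p = 0.0398), beside 12.0% of all probe sets called. None of 5 measured ligands that drive neutrophil output passed, Csf3 among them, with changes of −0.03 in MIA rats and −0.05 in naive rats.

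**Figure D5:**
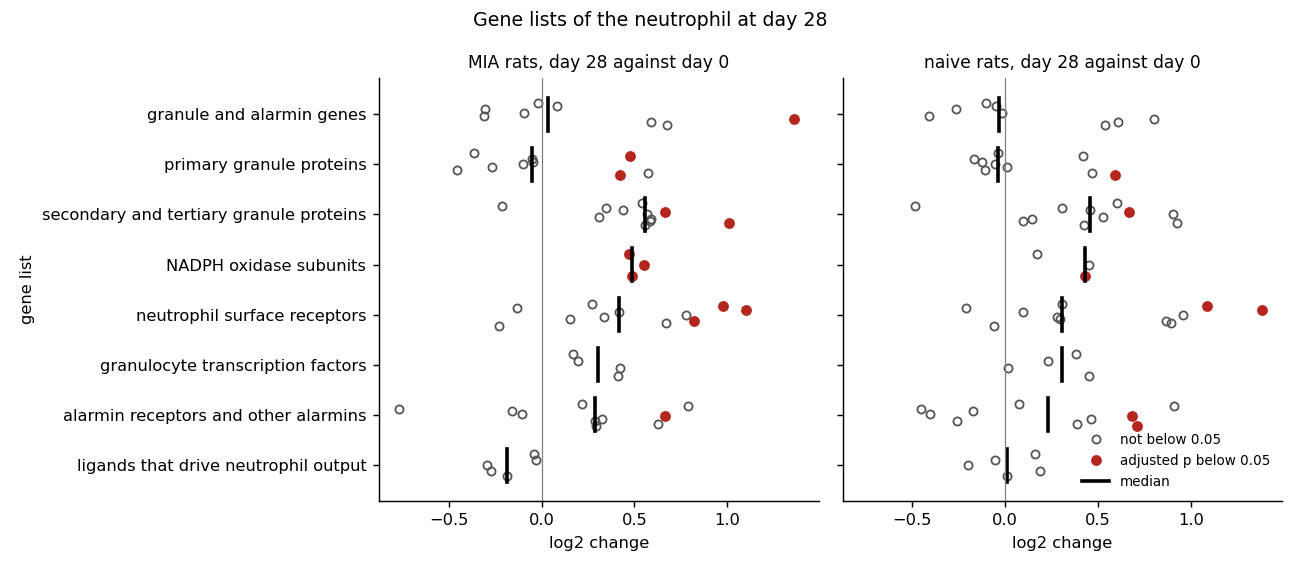
Log2 change at day 28 against day 0 (horizontal axis) of each measured gene in 8 lists of neutrophil genes (vertical axis) in MIA rats (left) and naive rats (right), with filled points for an adjusted p below 0.05 and black bars for the list median. The surface receptors have a median of 0.42 and the primary granule proteins of −0.05 in MIA rats.

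Markers of other blood cells moved at the same days. Of 10 probe sets of 9 erythroid and reticulocyte genes, 4 fell at MIA day 28, and the mean log2 signal over the list was 8.23 to 8.99 in MIA day 28 arrays and 8.95 to 9.56 in MIA day 0 arrays. In naive rats 2 of 10 fell, with a list mean of 8.49 to 8.89 at day 28 and 8.98 to 9.40 at day 0. Of 9 NK and cytotoxic markers, 6 rose at MIA day 28 and 6 at naive day 28, with list means of 4.65 to 5.00 at MIA day 28 and 3.68 to 4.26 at MIA day 0, and of 4.63 to 5.37 at naive day 28 and 3.96 to 4.37 at naive day 0. Il5ra and Ccr3, of 9 eosinophil, basophil and mast cell markers, rose at day 28 in both treatments, but the list did not rise as a whole. Its median change was −0.05 in MIA rats, with 2 of 9 above 0, and −0.03 in naive rats, with 4 of 9 above 0. None of the 8 monocyte, 11 T cell, 5 B cell, 6 platelet and 3 proliferating cell markers passed at day 28 in either treatment, while over all rats 3 monocyte and 4 T cell markers rose. Without a block, 4.26% of all probe sets were called at MIA day 28, 2.04% at naive day 28 and 12.0% over all rats. With the rat as a fixed block, the setting in which S100a8 and S100a9 were called, 10 of 10 erythroid probe sets and 1 of 3 proliferating cell markers fell at MIA day 28, and 2 of 8 monocyte, 4 of 11 T cell and 7 of 9 NK and cytotoxic markers rose. In naive rats that setting had 8 of 10 erythroid probe sets lower and 1 monocyte, 1 T cell and 8 NK and cytotoxic markers higher. It called 7.58% of all probe sets at MIA day 28 and 4.59% at naive day 28. Under the random block, 4 erythroid probe sets fell and 6 NK and cytotoxic markers rose at MIA day 28, with no monocyte, T cell or proliferating cell marker called. The share of all probe sets called under the random block is not given here. The part of these shifts in the values of Retnlg, S100a8 and S100a9 was not tested.

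No member passed the test between the treatments before the injection. At day 0, MIA minus naive was −0.33 ± 0.25 for Retnlg, 0.19 ± 0.38 for S100a8, −0.01 ± 0.31 for S100a9, 0.28 ± 0.36 for Lcn2, 0.38 ± 0.50 for Ngp and −0.33 ± 0.15 for Elane, all with an adjusted p of 1 by limma, and 4.24% of all probe sets had an unadjusted p under 0.05. In MIA rats, Retnlg averaged 8.05 ± 0.48 on day 28 and 6.69 ± 0.49 on day 0 (SD, n = 6), and in naive rats 7.82 ± 0.32 on day 28 and 7.02 ± 0.26 on day 0 (SD, n = 4).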

How the data were processed

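RNA of 50 whole blood samples was hybridised, each to 1 array. The study's methods describe background subtraction and quantile normalization, and the values the authors deposited are on a log2 scale with 1 signal for each probe set. The submitters' processing notes list oligo 1.36.1, and the step that combines probes is not given in the sources used here. Quantile normalization removes shifts common to all probe sets, so a change is relative to the rest of the array.

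MIA day 21 replicate 4 was left out. The means of the 10 groups were estimated on the other 49 arrays by limma 3.58.1 under R 4.3.3, which moderates the variance of a probe set towards the others. Tests were two-sided, with Benjamini-Hochberg adjustment over 36685 probe sets in a comparison and a threshold of 0.05. Scripts were tested on simulated data. Groups came from the labels. The members and gene lists were chosen with earlier results of these data known. Up to 4 genes with the smallest p were named from each other list. The 5 most similar genes were found for each member, and not all of them were named, with none for Elane and Ltf.

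Because the labels give the same animal at each day, the rat was also fitted as a block. With group means removed, arrays of 1 rat had a mean r of 0.0821 to each other, those of different rats had −0.0294, and the mean was above 0 in 10 of 10 rats. The number of arrays limits the precision. Of the probe sets, 14824 had 1 symbol, 829 had several and 21032 had none. The 8 measured members were matched to RefSeq by gene ID. Alternatives were all 50 arrays, the rat as a fixed or random block, another normalization, a filter on dim probe sets, other variance estimates, arrays of 1 treatment and leaving out each rat.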

Additional observations from a re-analysis of the deposited data

Results flagged for a closer look

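Of 80 groups of values, 1 per measured member, treatment and day with 4 to 6 arrays, 4 held a value far from the rest by Dixon's criterion, and chance gives about 5% of such groups. Of these values, 3 belonged to naive replicate 4, the rat with the lowest mean over days of S100a8, S100a9, Lcn2, Ngp and Camp. Its S100a8 was 5.10 at day 2, where the nearest other naive rat had 6.49, and its S100a9 was 7.21 at that day, with the nearest at 8.22. Its Ngp was 4.36 at day 14, with the nearest at 6.14. The other value was the Ngp of 5.23 in MIA replicate 1 at day 14, where the nearest MIA rat had 6.10. Their cause was not tested.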

How the results depend on the processing

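Of 23 changes of single members followed through the alternatives, none reversed. Outside these, the difference of the day 21 changes, MIA minus naive, was −0.05 for S100a8 and −0.03 for S100a9 with the rat as a fixed block, against 0.03 and 0.02 without it, all with an adjusted p of 1. Of the counts of members called, 349 values stayed within 1.5 times and 38 moved; 1 of the 349 was not equal, with 3 members (S100a8, S100a9 and Retnlg) over 4 days in all rats with the fixed block, against 2. With all 50 arrays, 0 members were called at MIA days 21 and 28, in all rats at days 21 and 28, and in the F tests over 4 days in MIA rats and all rats; the change of Retnlg was 0.12 at MIA day 21 with an adjusted p of 0.93. With the rat as a fixed replicate block, S100a8, S100a9 and Retnlg were called at MIA day 28, in all rats at day 28 and over 4 days in MIA rats. In all rats at day 21 that block also gave 3 members, S100a9 and Retnlg higher and Ngp lower, and S100a8 was not called (adjusted p = 0.12, limma). Over 4 days in naive rats it gave 1, Retnlg. The fixed block moved the probe sets called at MIA day 28 to 2780, against 1564 without it, and at naive day 28 to 1684, against 750. The random block, quantile normalization again, equal array medians and leaving out dim probe sets each gave 2 members, S100a9 and Retnlg, in all rats at day 28 and over 4 days in MIA rats, and the fit to MIA arrays alone gave 2 over 4 days. In the main fit, 12.0% of all probe sets were called in all rats at day 28 and 3.43% over 4 days in MIA rats. The shares under these alternatives are not given here. Quantile normalization and leaving out dim probe sets also gave 1, Retnlg, over 4 days in naive rats, and ordinary variances gave 1 over 4 days in all rats. Leaving out each rat gave 0 to 1 members at MIA day 21 (0 without MIA replicate 1 or MIA replicate 2), 1 to 3 over 4 days in MIA rats (3 without naive replicate 4), 0 to 1 over 4 days in naive rats (1 without MIA replicate 1), 1 to 2 in all rats at day 28 (2 without naive replicate 2) and 1 over 4 days in all rats, and 303 to 1987 probe sets at MIA day 28. The cause of these moves was not tested. A mean over several probe sets was not run, since each member has 1. The dim signals of Elane and Ltf limit what their values show.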
